A study of Caenorhabditis elegans with 2 samples.

Results

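The regions described are the 270 strongest nuclear PHA-4 peaks of replicate 1, out of 5594 nuclear peaks in its list. They were chosen by the authors' signal value, a measure of enrichment over control given for each peak: a peak belongs to the set when its signal is 9 or more. The other 5324 nuclear peaks are called the weaker peaks. The whole list held 5607 peaks, of which 13 lay on the mitochondrial genome and were left out, 2 of them with a signal of 9 or more. Because signal selected the set, signal values are given as a description and no test was made of them.

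PHA-4 binding was measured by chromatin immunoprecipitation and sequencing (ChIP-seq) in late embryos of Caenorhabditis elegans strain OP37, whose genotype is unc-119(ed3) III; wgIs37. The inserted transgene wgIs37 supplies PHA-4 fused to eGFP, so the tagged protein was read rather than the endogenous one. Whole animals of pooled sex were used, and the study holds 2 biological replicates of this 1 group, with no second genotype, stage or treatment. Peaks were deposited per replicate, for both replicates pooled, and as a final list, and no list gives read counts, so the depth behind a peak is unknown.

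PHA-4 is the worm's FoxA-type forkhead transcription factor. It is required to form the pharynx, the muscular feeding organ, and it is also made in the gut and in other tissues. FoxA proteins bind a short AT-rich site and can occupy DNA that is packed in nucleosomes. Most worm messenger RNAs are trans-spliced, which removes the original 5′ end, so an annotated transcript start often lies downstream of the true start of transcription.

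The sequences around the summits of 7 peaks are printed because they show how varied the set is: strong ones with and without the PHA-4 consensus, and a lower-ranked one with many copies of it. Each is 201 bases long, 100 to each side of the summit, read 5′ to 3′ on the forward strand of ce11 (WBcel235, RefSeq genome sequence). Capitals mark matches to the consensus TRTTKRY on either strand, where R is A or G, K is G or T and Y is C or T.
Rank 1, upstream of hif-1: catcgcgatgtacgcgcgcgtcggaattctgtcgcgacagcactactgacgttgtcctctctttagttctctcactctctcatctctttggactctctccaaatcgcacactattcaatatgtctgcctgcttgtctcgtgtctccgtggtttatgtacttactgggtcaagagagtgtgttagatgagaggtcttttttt
Rank 2, upstream of pha-4: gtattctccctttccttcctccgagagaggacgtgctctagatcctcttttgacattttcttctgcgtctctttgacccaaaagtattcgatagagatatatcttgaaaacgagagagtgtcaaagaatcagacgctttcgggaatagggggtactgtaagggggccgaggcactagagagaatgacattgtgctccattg
Rank 4, beside W02H3.3: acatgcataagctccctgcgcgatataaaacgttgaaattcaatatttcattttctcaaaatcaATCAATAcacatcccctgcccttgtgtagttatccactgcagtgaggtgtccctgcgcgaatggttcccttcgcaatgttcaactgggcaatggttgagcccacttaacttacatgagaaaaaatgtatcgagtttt
Rank 5, upstream of M02D8.3: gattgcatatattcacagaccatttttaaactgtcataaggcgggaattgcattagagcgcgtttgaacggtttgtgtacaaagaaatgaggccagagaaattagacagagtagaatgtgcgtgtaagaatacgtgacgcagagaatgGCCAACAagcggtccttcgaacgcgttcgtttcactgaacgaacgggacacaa
Rank 6, upstream of C04G6.2 and pld-1: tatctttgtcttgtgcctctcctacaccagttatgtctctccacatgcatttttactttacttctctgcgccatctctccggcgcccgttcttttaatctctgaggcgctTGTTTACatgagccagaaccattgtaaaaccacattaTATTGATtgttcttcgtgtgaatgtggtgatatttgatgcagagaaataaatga
Rank 7, in an intron of mnk-1: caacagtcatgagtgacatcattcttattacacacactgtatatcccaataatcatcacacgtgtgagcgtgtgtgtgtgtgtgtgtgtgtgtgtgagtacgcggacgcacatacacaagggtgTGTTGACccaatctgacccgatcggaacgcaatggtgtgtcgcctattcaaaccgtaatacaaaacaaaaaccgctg
Rank 142, in an intron of fkh-7: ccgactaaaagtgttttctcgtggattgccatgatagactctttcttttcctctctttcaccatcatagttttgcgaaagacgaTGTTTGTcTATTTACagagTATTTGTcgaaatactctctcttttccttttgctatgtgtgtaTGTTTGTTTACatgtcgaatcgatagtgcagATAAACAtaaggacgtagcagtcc

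The rank 1 window (V:20778398-20778598) and the rank 2 window (V:20749179-20749379) held no match to the consensus. Each held 3 copies of GAGAGA, counted on both strands with overlapping copies included, which appear in lower case as gagaga or tctctc. The rank 4 window (X:11094112-11094312) and the rank 5 window (X:8737143-8737343) had 1 consensus match each and no GAGAGA. The rank 6 window (II:5092474-5092674) had 2 consensus matches and 2 copies of GAGAGA. The rank 7 window (II:10549416-10549616) had 1 match beside a long run of alternating gt. The rank 142 window (IV:5603409-5603609) had 6 matches, the joint highest count in the set, with 1 copy of GAGAGA.

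Signal in the set ran between 9.003 and 58.8, with a median of 10.9 and quartiles of 9.92 and 13.5. The weaker peaks ran between 2.00 and 8.999, with a median of 2.94. A small number of regions stood far above the rest: 12 peaks reached 20 or more, 88 lay between 12 and 20, and 170 lay between 9 and 12. All 270 carried the smallest q-value of the list, 0.00336, which 173 weaker peaks (3.25%) shared, so q did not separate the set from the peaks just under it. Just inside the threshold were peaks beside his-24 (9.05), pqn-41 (9.03), Y71H2AM.20 (9.03), rbd-1 (9.02) and sco-1 (9.003). Just outside it were peaks beside eif-3.C (8.999), ZC416.2 (8.999), myrf-2 (8.997), rsp-6 (8.99) and pes-4 (8.96). The threshold therefore cuts a continuous run of values, which the plot of signal by rank shows.

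**Figure D1:**
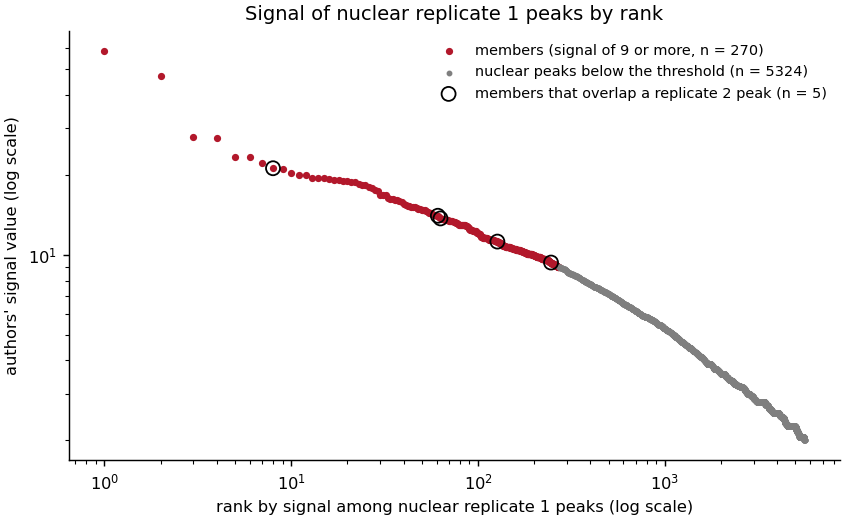
Each point is a nuclear replicate 1 peak, with its rank by signal on a log x axis and the authors' signal value on a log y axis. Red points are the 270 peaks with a signal of 9 or more, grey points the 5324 weaker peaks, and black rings the 5 strong peaks that overlap a replicate 2 peak; the rings are spread along the red run.

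Few of these regions were in the replicate 2 list. A replicate 2 peak overlapped 5 of the 270 by at least 1 bp, which is 1.85% (exact Clopper-Pearson 95% interval 0.604 to 4.27%), against 79 of the weaker peaks (1.48%). Over all nuclear replicate 1 peaks the share was 1.5%, so the share of strong peaks was near the background. In none of the 5 were the summits close: 0 of 270 strong peaks had a replicate 2 summit within 100 bp, which allows a share of up to 1.11% (3 counts of the 270), against 11 weaker peaks (0.207%). The nearest replicate 2 summit lay at a median of 19706 bp from a strong peak's summit, and at 18352 bp from a weaker one. Intervals here and in what follows cover the counting of peaks only.

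The 5 overlaps can be named. The first was in an intron of pha-4 itself (V:20756654-20756997), with a signal of 21.2 in replicate 1 and 5.45 in replicate 2, where it ranked 6, and the summits were 361 bp apart. The second lay between drr-2 and set-16, a histone methyltransferase gene (III:13643542-13643885), with signals of 14.0 and 3.27 and summits 284 bp apart. The third lay 3003 bp upstream of egl-27, a gene for a chromatin protein related to human MTA proteins (II:6831833-6832176), with signals of 13.7 and 2.59. The other two were upstream of rad-54.L2, with signals of 11.2 and 2.55, and of C14A11.9, with signals of 9.35 and 2.63. The replicate 2 q-values of these peaks ran between 0.351 and 0.480, and no peak in that list had a q-value of 0.05 or less. The scaling of signal between libraries is not given, so the paired signals show ranks within each list and not a change.

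All 270 regions overlapped a pooled peak (100%, interval 98.6 to 100%), against 79.0% of the weaker peaks and 80% of all nuclear replicate 1 peaks. The pooled list contains the reads of replicate 1 and so is no independent check. In it the regions had signals between 5.65 and 59.3, with a median of 11.003, and all had a pooled q-value of 0.05 or less, against 1066 of the weaker peaks (20.02%). The order was largely kept at the top: the peak near hif-1 had a signal of 58.8 in replicate 1 and 59.3 in the pooled list, and ranked 1 in both. The peak upstream of pha-4 had 47.4 and 44.7 and ranked 2 in both. Of the 270 regions, 228 (84.4%) overlapped one of the 270 strongest nuclear pooled peaks, against 2 (0.741%) that overlapped one of the 270 strongest nuclear replicate 2 peaks. The final list, of 9 peaks, included 8 of the regions.

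The strongest regions lay beside genes of very different kinds. The top peak (V:20778326-20778669) was 1909 bp upstream of hif-1, the hypoxia-inducible transcription factor, and within 20 kb of pha-4, whose own upstream peak ranked second at 3773 bp from its start. In all, 5 of the regions lay within 20 kb of pha-4, the gene whose tagged form the transgene supplies. Any effect of the transgene on signal there was not tested. Rank 3, with a signal of 27.9, was 41 bp upstream of unc-16, which encodes a scaffold of JNK signalling needed for axonal transport. Rank 4 (27.6) lay 3974 bp downstream of the nearest start, that of W02H3.3, and rank 5 (23.4) was 228 bp upstream of M02D8.3. Rank 6 (23.4) lay between C04G6.2 and pld-1, a phospholipase D gene, and rank 7 (22.2) was in an intron of mnk-1, a kinase of the MAP kinase-interacting family. Of the 20 strongest, 11 were in a promoter window and 7 in an intron.

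Among the other members of the top 20, genes of the ribosome, nuclear receptors and glutamine-rich proteins were represented. The peak 277 bp upstream of rpl-3, a protein of the large ribosomal subunit, had a signal of 20.4. The peak 24 bp upstream of rpl-12, also within the window of lin-54, a DNA-binding subunit of the DREAM complex, had 19.2. The nuclear hormone receptor genes nhr-32 (318 bp upstream, signal 20.1) and nhr-3 (intron, 20.1) were present, as were pqn-42 (19.5) and pqn-41 (introns, 21.1 and 19.5), named for prion-like glutamine- and asparagine-rich domains. The peak 172 bp upstream of cdc-48.1, one of the worm's p97-type AAA ATPases, had 19.5. The pha-4 intron peak described above ranked 8 (21.2). The remaining entries were F17E5.2 (19.2), F54F12.1, whose start is 7192 bp away (19.2), pes-4 (19.0) and sma-9, a Schnurri-family factor of BMP signalling (18.9).

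The regions lay upstream of annotated starts more often than downstream of them. A summit was counted as in a promoter window when it lay between 1000 bp upstream and 500 bp downstream of the start of a protein-coding transcript. Of the 270, 135 were in such a window (50%, interval 43.9 to 56.1%), against 46.1% of the weaker peaks and 46.3% of all nuclear replicate 1 peaks. The share was therefore near the background, but the summits were placed differently from those of the weaker peaks as a whole. In the 200 bp just upstream of a start lay 56 summits (20.7%), against 13.6% of weaker peaks, and in the 200 bp just downstream lay 10 (3.70%), against 6.76%. Within 200 bp of a start, to either side, lay 24.4% of strong peaks and 20.4% of weaker ones. Among weaker peaks with a signal of 6 to 9 that share was 26.1%. With upstream counted as negative, the median distance was -234.5 bp for strong peaks and the upper quartile 90.75 bp. All weaker peaks had -129 bp and 847 bp, and those with a signal of 6 to 9 had -219 bp and 119.5 bp. The upstream placing was therefore not particular to the set. Leaving direction aside, the median distance to a start was 919 bp (interval 684 to 1081), against 915 bp for the weaker peaks.

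**Figure D2:**
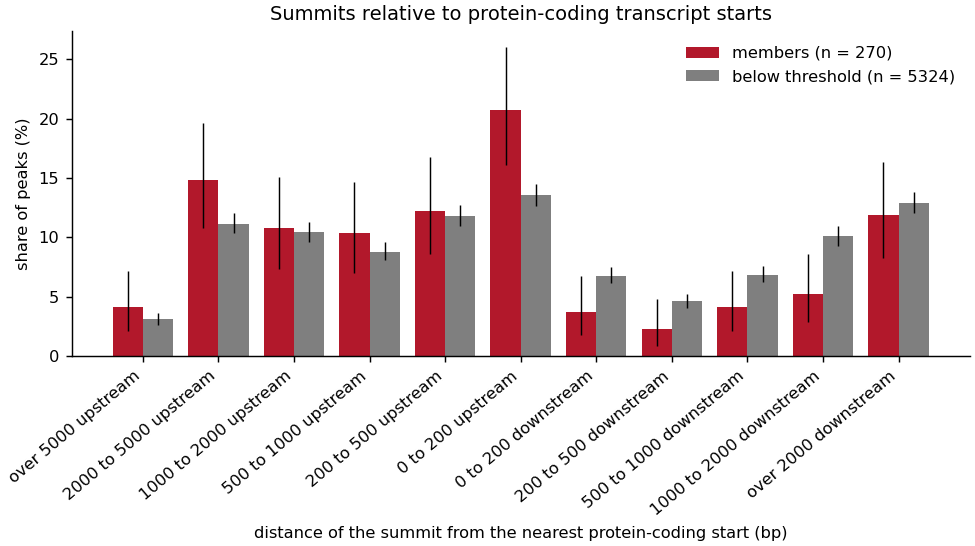
Bars give the share of summits in each class of distance from the nearest protein-coding transcript start, running on the x axis from far upstream to far downstream, for the 270 strong peaks (red) and the 5324 weaker peaks (grey), with 95% intervals for counting peaks. The red bar is tallest in the 200 bp upstream of a start, at 20.7%.

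Coding sequence was almost absent from the set. Only 1 summit (0.370%), in nhr-3, lay in a coding exon, against 859 of the weaker peaks (16.1%). Intergenic summits numbered 159 (58.9%), against 45.0% of weaker peaks, and intronic summits 62 (23.0%), against 25.6%. Summits in exons of non-coding RNAs numbered 35 (13.0%), against 6.76%. Weaker peaks with a signal of 6 to 9 lay nearer to the set in all of these shares. Theirs were 1.94% in coding exons, 54.6% intergenic, 25.1% in introns and 12.1% in non-coding RNA exons. The introns that held strong peaks, counted against protein-coding genes only, had a median length of 2255 bp, against 1488 bp for weaker peaks. The gaps between protein-coding genes had medians of 3630 bp and 3580 bp, while the median over the bases of all such gaps was 5426 bp.

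Starts of non-coding RNA genes were close to many of the regions. Such a start, leaving out piRNAs, lay within 200 bp of 64 summits (23.7%), against 12.8% for the weaker peaks. Among the 135 regions outside protein-coding promoter windows, 39 had one (28.9%), against 14.4%. By gene class, windows with a strong peak were found for 12 of 612 tRNA genes (1.96%), 11 of 346 snoRNA genes (3.18%), 8 of 261 miRNA genes (3.07%), 2 of 129 snRNA genes (1.55%), 1.48% of 7764 genes of the ncRNA class, 72 of 15363 piRNA genes (0.469%) and 0 of 20 rRNA genes. Over these 7 classes together the share was 0.898%, most of the genes being piRNA genes. The miRNA genes came from 5 peaks: 1 peak upstream of mir-54, mir-55 and mir-56 (signal 13.4), and others beside mir-58a (12.4), mir-73 and mir-74 (11.1), mir-5595 (10.9) and mir-1 (9.51), the conserved muscle miRNA.

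A summit fell in the promoter window of 172 of 19973 protein-coding nuclear genes (0.861%). Of the 135 regions in a window, 97 had 1 gene and 37 had 2. Of the 270, 36 (13.3%) lay in windows of genes on both strands, against 8.41% of weaker peaks. Among weaker peaks with a signal of 6 to 9 that share was 13.6%, so it was not particular to the set. Regions shared by genes in this way cannot be given to 1 of them.

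Against that share of 0.861% over all protein-coding genes, the list of pharynx regulators had the highest share of the gene lists examined, from a small count. The lists were chosen with earlier results of these data known, and this one includes pha-4, the gene of the tagged factor, so the ranking is no support. Of its 14 genes, 2 had a strong peak in the window (14.3%): pha-4 and ceh-22, an NK-2 type homeobox gene that activates pharyngeal muscle genes. The ceh-22 gene had 2 of them, 882 bp upstream (signal 10.8) and 40 bp upstream (10.4). The counts were 0 of 16 genes for pharyngeal muscle and gland products, 0 of 5 gut regulators, 0 of 5 epidermis regulators, 0 of 5 hypoxia genes, 0 of 10 autophagy genes and 0 of 11 nutrient signalling genes. At the share of all genes, lists this short would mostly hold none, so these counts say nothing about the lists. The peak near hif-1 lies outside its window.

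Other transcription factor families included genes with strong peaks in the window and genes with peaks farther off. Of 269 nuclear hormone receptor genes, 2 had one in the window (0.743%, near the 0.861% of all protein-coding genes), nhr-32 and nhr-228 (9 bp downstream, signal 14.7). Counting peaks at any distance, 8 of the 269 receptor genes were the nearest gene to a strong peak, against 252 of all 19973 protein-coding genes. Besides the 2 in the window they were nhr-1 (13.5), nhr-17 (11.2), nhr-4 (10.96), nhr-71 (10.02), nhr-34 (9.94) and nhr-3. Of 63 homeobox genes, 2 had one (3.17%), ceh-22 and ceh-38, a ONECUT-type gene (signal 13.0). Among 9 forkhead genes, 0 had one in the window, and fkh-7 held 3 peaks in its introns and fkh-9 had 1 at 7179 bp upstream (12.3). The count was 0 of 25 helix-loop-helix genes, a list as short as those above.

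Ribosomal protein and chaperone genes gave larger counts than the pharynx regulators, from longer lists. Of 78 ribosomal protein genes, 6 had a strong peak in the window (7.69%): rpl-3, rpl-12, rpl-13 (signal 13.3), rpl-20 (10.1), rpl-31 (9.35) and rps-22 (9.25). Of 38 translation factor genes, 2 did (5.26%): iff-2, an eIF5A gene (10.05), and eef-1A.2, an elongation factor gene (9.95). Of 59 chaperone genes, 4 did (6.78%): dnj-14 (16.3) and dnj-13 (11.6), of the J-domain family, and cct-6 (14.99) and cct-8 (12.4), subunits of the chaperonin that folds actin and tubulin. Of 20 vacuolar ATPase genes, 2 did (10%): vha-8 (15.3) and vha-12 (9.82). The genes rpl-12, rpl-20, rpl-31, rps-22, iff-2, vha-8, cox-6B and the 4 chaperone genes share the region with the window of a neighbouring gene. The lists with 1 such gene gave his-24, a linker histone (9.05), hrpk-1, an RNA-binding protein related to hnRNP K (10.6), and cox-6B, a cytochrome oxidase subunit (9.03). For comparison, 0.861% of all protein-coding genes had a strong peak in the window, and the lists were not tested. Windows with weaker peaks only were found for 60.3% of ribosomal protein genes, 39.0% of chaperone, 36.8% of translation factor and 20% of vacuolar ATPase genes. Over all protein-coding genes that share was 13.4%, so the higher shares of these lists were not particular to strong peaks.

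Among effector families, 0 of 156 cuticle collagen genes and 0 of 240 C-type lectin genes had a strong peak in the window, against 0.861% of all protein-coding genes. At that share, lists of this length would hold few such genes, so counts of 0 say little about these families. Weaker peaks alone were found for 5 collagen genes (3.21%) and 15 lectin genes (6.25%), against 13.4% of all protein-coding genes.

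The regions were spread over all chromosomes, most densely on X. X held 71 of them (26.3%), against 21.5% of the weaker peaks, and X makes up 17.7% of the genome. That is 4.01 per Mb on X and 2.41 per Mb on the autosomes, or 26.0 and 11.5 per 1000 protein-coding genes. The others were divided as 45 on III, 44 on IV, 39 on V, 36 on I and 35 on II. The share in a promoter window was 68.6% on II and 38.9% on I. Of all 270, 42.2% lay in the middle one of 3 equal parts of a chromosome, against 41.3% of weaker peaks.

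Most of the regions stood alone, but some genes held several. The nearest other strong peak lay at a median of 106174 bp, and 36 of the 270 (13.3%) had one within 5 kb. For weaker peaks the nearest strong peak lay at a median of 116536 bp, and 5.26% had one within 5 kb. Over all nuclear replicate 1 peaks that share was 5.65%, and for weaker peaks with a signal of 6 to 9 it was 8.86%. The 36 strong peaks made 15 groups: 10 pairs, 4 groups of 3 and 1 group of 4. The group of 4 was at pha-4: its upstream peak (47.4), peaks in introns of 12.1 and 21.2, and one 3966 bp from a start (16.1), over 11597 bp.

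The groups of 3 each sat on 1 gene or its upstream region. At egl-27 they lay 5718 bp, 3003 bp and 1082 bp upstream, with signals of 13.6, 13.7 and 11.6. In the introns of pqn-41 they had signals of 21.1, 9.03 and 19.5, and in those of zfp-1, a gene for a chromatin protein related to AF10, 10.2, 17.5 and 10.04. In the introns of fkh-7 they had 11.3, 10.7 and 10.2, and the last pair of these carried 6 and 5 matches to the consensus. The closest pair, 691 bp apart, was in nhr-3, and other pairs lay at chd-7, a chromatin remodeller gene, at sma-9 and at ceh-22. The nurf-1 gene, for a subunit of the NURF remodelling complex, had 2 peaks in promoter windows that were farther apart.

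**Figure D3:**
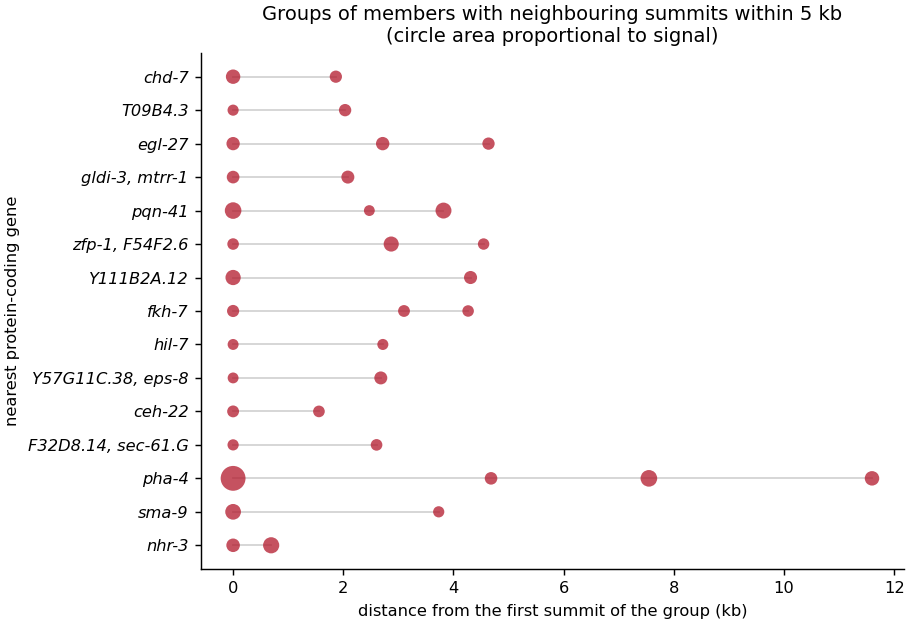
Each row is 1 of the 15 groups of neighbouring strong peaks, labelled by the nearest protein-coding genes, and the x axis gives the distance of each summit from the first one in kb. Circle area is proportional to signal; the pha-4 row spans 11.6 kb and has the largest circle.

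The farthest regions from any protein-coding start were beside F57G12.1 (10159 bp upstream), egl-4, a cGMP-dependent protein kinase gene (8723 bp), die-1, a zinc-finger gene (8227 bp upstream), nhr-1 (8121 bp upstream) and an intron whose nearest start was at 7947 bp.

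The PHA-4 consensus was frequent near the summits. A match to TRTTKRY within 100 bp was found in 188 regions (69.6%, interval 63.8 to 75.1%), against 56.8% of weaker peaks and 57.4% of all nuclear replicate 1 peaks. The windows centred 500 bp to each side of the same regions held one in 47.0%, the 201 bases up to protein-coding starts in 52.6%, and windows of that length across the genome in 45.1%. The share was 69.6% both inside and outside promoter windows. At least 3 matches were found in 40 regions (14.8%), against 7.10% of weaker peaks. Of weaker peaks with a signal of 6 to 9, 64.4% held a match (interval 59.8 to 68.7%) and 9.29% held at least 3. The highest count in a single region, 6, was reached in an intron of pha-4 and in an intron of fkh-7.

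The match density was highest at the summit. Within 60 bp of it there were 6.91 matches per kb, against 4.70 around weaker summits, and at 300 to 500 bp there were 3.60 and 3.56. The nearest match lay at a median of 29.5 bp, against 37 bp. All forms of TRTTKRY together were at 1.23 per strong peak and 0.886 per weaker peak. Of the 16 sequences it can spell, TGTTGAC was 2.68 times as frequent per peak as in the weaker peaks (27 copies). TGTTTAC, the core of the known FoxA site, was at 2.40 times (39 copies) and TATTGAC at 2.23 times (25 copies). These were the highest ratios. The most frequent form, TGTTTGT, was at 1.53 times. Ratios below 1 were those of TGTTGAT (0.602), TGTTGGC (0.736), TATTGGC (0.857), TATTGAT (0.891), TATTTAT (0.937) and TGTTGGT (0.997).

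A different sequence separated the set from the weaker peaks more widely. Of the 2080 distinct 6-base sequences, counted with their reverse complements, GAGAGA had the largest difference: it was in 153 regions (56.7%, interval 50.5 to 62.7%), against 26.6% of weaker peaks. The windows 500 bp away held it in 11.3%, the sequences up to starts in 16.6% and genome windows in 9.99%. The next were AGAGAC (45.6% against 17.8%) and the overlapping AGAGAG, and CGTCTC (36.7% against 15.1%), while ACACAC was in 34.4% against 15.9%. At the other end CTGAAA was in 5.56% against 24.1%. Copies of GAGAGA were concentrated at the summit, with 9.14 per kb within 60 bp against 3.20 for weaker peaks, and 0.852 against 1.00 at 300 to 500 bp.

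The sequence CTGCGTCTC, a 9-base element known from worm promoters, followed the same pattern. It was in 49 regions (18.1%, interval 13.7 to 23.3%), against 6.01% of weaker peaks, 0.556% of the flanking windows and 2.38% of the sequences up to starts. Among weaker peaks with a signal of 6 to 9 the share was 13.4%. CTGCGTCTC was found in 8.45% of the regions on X (6 of 71, interval 3.16 to 17.5%) and 21.6% of those on autosomes. The weaker peaks differed in the same direction, with 3.75% on X and 6.63% on autosomes.

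**Figure D4:**
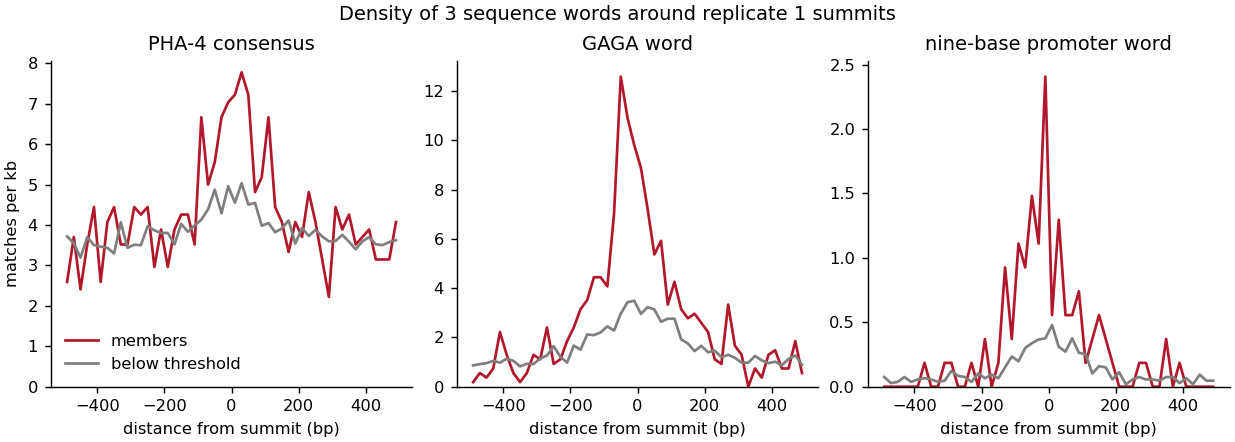
The panels give matches per kb on both strands, in bins of distance from the summit, for the PHA-4 consensus, GAGAGA (the GAGA word) and CTGCGTCTC (the nine-base word), for strong peaks (red) and weaker peaks (grey). Each red line is highest near the summit and falls to the level of the grey line by 300 to 500 bp.

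The PHA-4 consensus and GAGAGA were found together in 106 regions (39.3%), against 14.5% of weaker peaks. GAGAGA was in 56.4% of regions with the consensus and 57.3% of those without it. The consensus, GAGAGA and CTGCGTCTC were all absent from 31 regions (11.5%), against 30.3% of weaker peaks. Across 8 signal classes of replicate 1, GAGAGA was found in 19.7% of peaks under 2.5, in 28.1% of those at 3 to 4, in 41.9% at 6 to 9, in 55.3% at 9 to 12, in 59.1% at 12 to 20 and in 58.3% of the 12 peaks at 20 or more. The share in a promoter window did not follow this course, as the plot of shares by signal class shows.

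**Figure D5:**
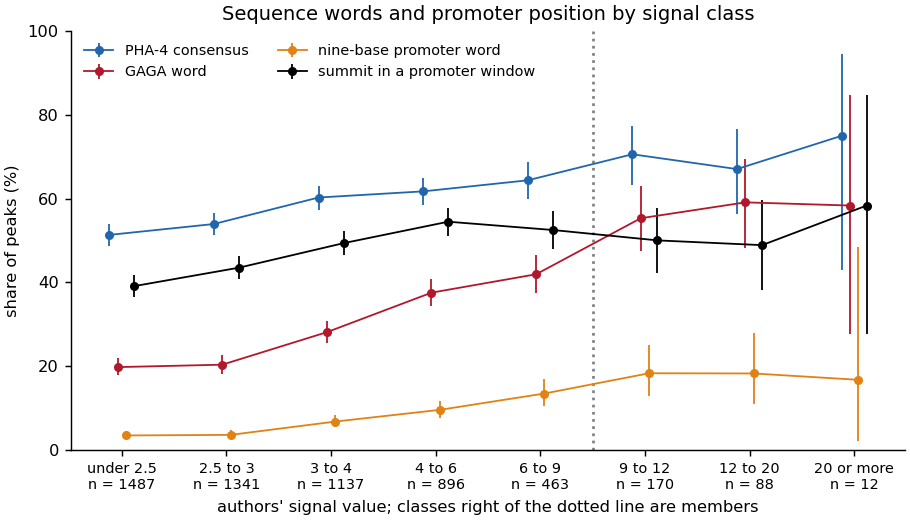
Points give the share of nuclear replicate 1 peaks in each of 8 classes of the authors' signal, low to high, that hold each sequence within 100 bp of the summit or lie in a promoter window, with 95% intervals for counting peaks. Classes right of the dotted line are the 270 strong peaks; the GAGA share is 19.7% in the lowest class and 58.3% in the highest, where n is 12.

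Base composition moved with these shares. The summit windows had a median GC content of 45.3%, against 39.8% for weaker peaks, 34.1% for the flanking windows and 35.4% for the genome. Within the range of GC of the middle 150 regions, 41.3 to 48.8%, GAGAGA was in 58.7% of regions against 35.6% of 1735 weaker peaks, the consensus in 69.3% against 54.6%, and CTGCGTCTC in 20% against 7.61%. The GATA site WGATAR (W is A or T) was in 27.0% of all the regions against 33.1% of weaker peaks, and in 31.3% against 29.3% within that range. A match is a sequence in the window and not a bound site.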

How the data were processed

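Peaks came from the deposited replicate 1, replicate 2, pooled and final lists in ce11, with ce10 as an alternative. Per the labels, both replicates belong to 1 group. The authors deposited for each peak a signal value against control and a −log10 q-value, which were used as given, and a summit offset. Neither aligner nor peak caller, nor any version, is given in the sources used here.

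The members are the nuclear replicate 1 peaks with a signal of 9 or more. Members and gene lists were chosen with earlier results of these data known. Shared peaks overlap by 1 bp or more. Genes were annotated with Ensembl release 115 on WBcel235, the same build as ce11, and starts are those of protein-coding transcripts. Genes were named by rule: the 20 strongest, the 2 strongest on each chromosome, those in replicate 2, those at the threshold, the farthest from starts, groups of 3 or more, those with most matches, and listed genes. Sequences were searched on both strands within 100 bp of the summit, in flanks centred 500 bp away, up to starts and across the genome. The GAGAGA and CTGCGTCTC positions, joint counts and signal classes, the intron and gap lengths, the non-coding starts and the GC range were chosen after values were seen, as were chd-7 and the other pairs of peaks named. Percentages have exact Clopper-Pearson 95% intervals for counting peaks, and no p-values were computed, since the signal that chose the members is the measure being described. The counting code was tested on simulated data. Python 3.11.15, numpy 2.4.6, pandas 2.3.3 and scipy 1.17.1 were used.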

Additional observations from a re-analysis of the deposited data

How the results depend on the processing

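The members come from the replicate 1 list alone. A threshold of 12 left 100 members, and one of 8 gave 368; ce10 gave 270. Shares of members in the replicate 2 list were 0% by summits within 100 bp and 0.370% by overlap of at least 50% of the member, and the share in the pooled list was 97.4% by summits within 100 bp. The promoter share was 38.9% with a window from 500 bp upstream, 63.3% from 2000 bp and 73.0% with starts of every biotype. The consensus share was 48.5% within 50 bp, 77.8% within 150 bp and 52.6% with TRTTTRY. Neighbours within 2 kb were found for 5.19% of members, and the median distance was 242 bp with starts of every biotype.

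Without replicate 1, the 270 strongest nuclear replicate 2 peaks gave 31.1% in a promoter window, 49.3% with the consensus, 14.1% with GAGAGA, 0.370% with CTGCGTCTC, 10.4% with a neighbour within 5 kb and a median distance of 1321 bp. The causes were not tested. Without replicate 2 no value of the replicate 1 list changes. Leaving out the pha-4 region kept the shares in the replicate 2 and pooled lists, in promoter windows, with the consensus, GAGAGA or CTGCGTCTC and with a neighbour, and the median distance, within the interval of the reported value. Taking the strongest pooled peaks did so too, run for all of these but the replicate 2 and pooled shares. Of those 270 pooled peaks, 232 (85.9%) overlapped a member, and the pooled list contains the reads of replicate 1. That alternative is therefore no independent check. The GAGAGA and CTGCGTCTC alternatives were chosen after seeing the data. No paired analysis was possible because there is 1 group. Depth is unknown, so a low overlap with replicate 2 cannot be read as absence.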
